A study of Homo sapiens with 4 samples.

Results

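The core histone genes encode H2A, H2B, H3 and H4, the proteins around which DNA is wrapped. They were taken by symbol, as every gene of the deposited annotation named H2AC, H2BC, H3C or H4C followed by a number, which gave 58 genes of 60605. Of these, 47 lie in the cluster on the short arm of chromosome 6 and 11 in the cluster on the long arm of chromosome 1, and 0 lay elsewhere. By class, 15 encode H2A, 16 encode H2B, 13 encode H3 and 14 encode H4. Their RNA was measured by sequencing of 4 libraries from OVCAR3 (NIH-OVCAR3), an established line of high-grade serous ovarian carcinoma cells from malignant ascites. All cultures were first arrested in mitosis by 16 h in nocodazole (100 ng/ml), then washed and released for 3 h. The 2 libraries of the control group then came from cells kept in DMSO, the vehicle, and the 2 libraries of the etoposide group from cells kept in 1.7 µM etoposide for 24 h. Etoposide traps topoisomerase II on cut DNA and so breaks both strands. The labels and the study's methods name these groups so, but the same methods also call the sequenced cells transfected and the groups control and mutant, which was not resolved here. The labels call the libraries of a group biological replicates of 1 cell line, with nothing said of separate batches or days. The question the comparison addresses is which histone genes differ in level after this damage.

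Core histones of these clusters are made mainly during DNA replication, when new DNA must be packaged. Dimers of H2A and H2B join a tetramer of H3 and H4 in the nucleosome, and the clustered genes are transcribed in histone locus bodies, where NPAT and its partners gather. Their messages usually carry no intron and no poly(A) tail. They end instead just after a short stem-loop, which the protein SLBP binds and which is needed for processing, translation and rapid decay when DNA synthesis stops. Some of these genes also make longer, polyadenylated messages, including in cells that do not divide.

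All 58 genes hold a 16-base histone stem-loop, beginning 22 to 67 bases after the stop codon on GRCh38, with 0 mismatches to the motif searched, the histone 3′ stem-loop with either pyrimidine or either purine allowed at some places. In the same window of 150 bases after the stop codon, on the sense strand, 10 of 19843 other protein-coding genes (0.0504%) held a match, among them H2AX and genes of the linker histone H1. The 7 below belong to genes on which the results turn. They are shown because the element is the one by which the transcripts are grouped further on. Annotated transcripts of H2BC12, H2AC18 and H2AC8 end just after it, while that of H2BC21, that of H4C9, those of H4C14 and the leading one of H4C8 run on beyond it. Capitals mark the stem-loop, whose position is given, and the lower-case letters are the flanks.
H2BC12 (chr6:27146366-27146381, minus strand): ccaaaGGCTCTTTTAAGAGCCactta
H2AC18 (chr1:149842223-149842238, minus strand): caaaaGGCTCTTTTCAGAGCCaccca
H2BC21 (chr1:149886188-149886203, minus strand): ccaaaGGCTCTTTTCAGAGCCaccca
H2AC8 (chr6:26217417-26217432, plus strand): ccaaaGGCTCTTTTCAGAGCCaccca
H4C8 (chr6:26285131-26285146, minus strand): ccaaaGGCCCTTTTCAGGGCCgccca
H4C9 (chr6:27139654-27139669, plus strand): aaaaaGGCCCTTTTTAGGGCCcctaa
H4C14 (chr1:149833032-149833047, plus strand): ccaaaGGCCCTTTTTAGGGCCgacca
The most frequent loop, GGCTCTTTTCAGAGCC, was found in 32 genes of H2A, H2B and H3, and a second, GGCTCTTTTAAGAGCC, which H2BC12 carries, in 7. The H4 genes have another stem, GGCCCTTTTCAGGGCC in 9 and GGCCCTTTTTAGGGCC in 4. H4C9 and H4C14 share the same 16 bases and are set side by side below, since they differed unequally between the groups.

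The files give FPKM (a level per kilobase of transcript, scaled to library depth), which were summed over the transcripts of a gene. The mapped bases behind the values equal 47687126 to 66500749 read pairs per library, with the lowest in etoposide replicate 1. Of the 58 genes, 49 reached a mean of 0.1 FPKM over the 4 libraries and were tested. The members differed widely in level, as 10 genes had a mean FPKM of 10 or more, 19 of 1 to 10, 20 of 0.1 to 1 and 9 of less. The 10 high genes rest on an estimated 557 to 5006 fragments per library, the 20 low ones on 1 to 172. The 9 genes not tested were H2BC3, H3C3, H3C4, H4C6, H4C7, H2BC14, H2AC15, H3C11 and H4C13, of which H4C6, H2AC15 and H4C13 were listed at 0 in every library. Genes that current annotation places in the family under another name in the files (H2AW, H2BU1 and H4-16) are outside the 58, and all 3 had lower values in both etoposide libraries (H4-16: 5.06 and 6.43 in DMSO, 3.67 and 3.54 in etoposide).

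The level was concentrated in few genes. H2BC12, an H2B gene of the chromosome 6 cluster, alone held 34% and 33.1% of the summed FPKM of all core histone genes under DMSO and 30.5% and 30.9% under etoposide. The 10 highest genes together held 81.9% to 84.6%.

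**Figure D1:**
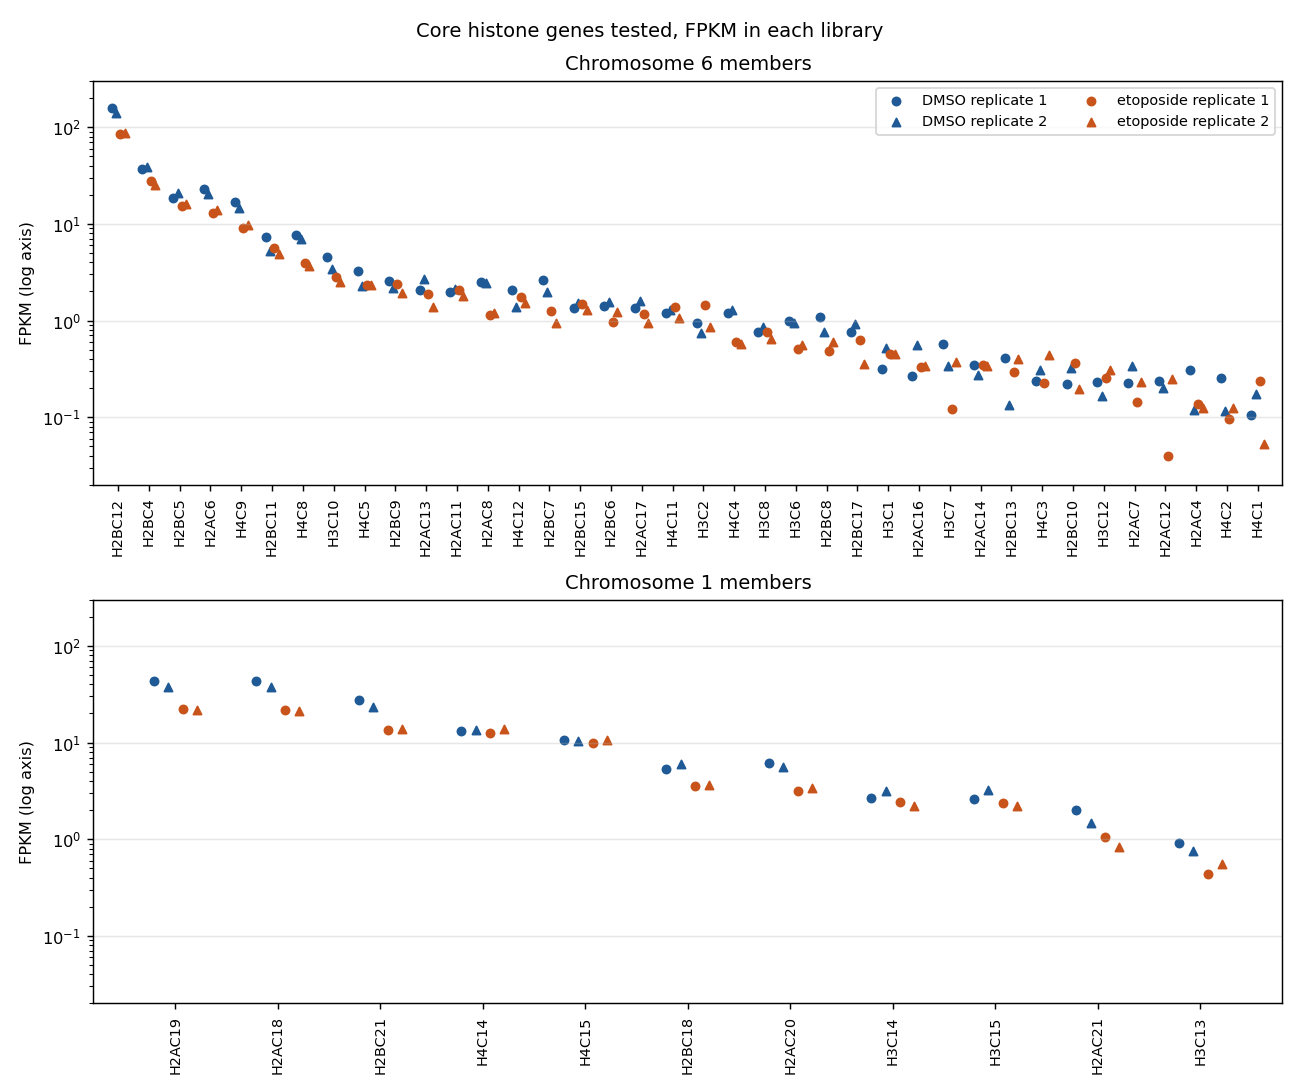
FPKM (log axis) of the 49 core histone genes tested, in each of the 4 libraries, ordered by level within the clusters on chromosome 6 (top) and chromosome 1 (bottom). Blue points are DMSO, orange points etoposide. H2BC12 lies above all other genes, the orange points of most high genes lie below the blue ones, and those of H4C14 and H4C15 do not.

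Core histone genes as a family had lower values in etoposide treated cells. Their summed FPKM was 461 and 422 under DMSO and 281 and 279 under etoposide, so that both etoposide libraries lay below both DMSO libraries. The mean went from 442 ± 27.9 to 280 ± 1.63 (SD, n = 2), 63.3% of the DMSO mean and a log2 ratio of −0.66. Without H2BC12 the mean sum was 293 ± 15.8 in DMSO and 194 ± 1.86 in etoposide, a log2 ratio of −0.60. Fewer cells that express histone genes and less histone RNA per cell cannot be told apart in such bulk samples. Of the S phase markers, genes of the part of the cell cycle in which clustered histone genes are mostly expressed, 42 of 43 had a higher mean in etoposide. Of all 22185 genes tested, 12458 had a higher mean and 9727 a lower one. The S phase markers had summed FPKM of 798 and 866 in DMSO and 1026 and 1022 in etoposide. The 12 epithelial markers of serous ovarian carcinoma summed to 2201 to 3191 FPKM over the 4 libraries, and 10 of 12 had a lower mean in etoposide (median log2 fold change −0.28). The part of either list in the histone values was not tested. With 2 libraries against 2, an exact permutation test of a single value cannot give a two-sided p below 0.333, so that the sums are given without one.

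Of the 49 genes tested, 42 had a lower mean in etoposide, with a median log2 fold change of −0.41 (range −1.03 to 0.38), against a median of 0.036 over all 22185 genes tested. In limma with Benjamini-Hochberg adjustment 0 of the 49 passed an adjusted p under 0.05, and 0 (0%) of all genes tested did. With estimated fragments and voom it was 0 of the 49 too, and 1 of all 22185 genes tested was called, as higher. At an unadjusted p under 0.05, 23 of the 49 were lower and 0 higher, where 4.85% of all genes were lower. Both etoposide libraries lay below both DMSO libraries in 26 of the 49, against 19% of all genes, and above them in 1, against 28.9%. A value at least 1.5-fold lower was seen in 18 of the 49, against 3.06%. H2AC18 and H2AC19, H3C14 and H3C15, H4C14 and H4C15, and H4C11 and H4C12 are pairs of near-identical sequence. Both genes of each such pair enter these counts, though their reads cannot be told apart with certainty.

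The number of calls turned on the libraries used. Without DMSO replicate 2, 13 of the 49 passed as lower (2.66% of all genes), without etoposide replicate 1 it was 6 (0.297%), and without etoposide replicate 2 also 6 (0.27%). H2AC18, H2AC19, H2BC12, H2BC21 and H4C8 were called in all 3 of these fits, while without DMSO replicate 1 0 of the 49 passed. With each library corrected for transcript length and GC content, H2AC18, H2AC19 and H2BC12 passed as lower (adjusted p = 0.0487 for each in limma), 3 of 49 where 0.027% of all genes did. H2AC18 and H2AC19 are identical in sequence, so that they are not independent calls. The members are short and rich in GC, with a median transcript length of 549 bases and a GC content of 56.1%, against 2078 bases and 48.1% over all genes tested, and DMSO replicate 2 lay below DMSO replicate 1 by a median of 0.14 (log2) over the members, against a median difference of 0.005 over all genes.

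The members were also counted by level. All 10 with a mean FPKM of 10 or more had a lower mean, 8 of them without overlap of the groups, with a median of −0.71. Of all 5595 genes at that level, 24.8% had both etoposide libraries below both DMSO libraries, and the median was 0.004. The 19 genes of 1 to 10 FPKM also all had a lower mean (12 without overlap, against 17.9% of all genes at that level, median −0.43). The 0.1 added before taking logs shrinks the fold changes of the lowest genes. Of the 20 genes of 0.1 to 1 FPKM, 13 were lower and 7 higher (median −0.28), and 13 had groups that overlapped, near the 60.1% of all genes at that level. Both etoposide libraries lay lower in 6 of the 20, against 16.3%.

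**Figure D2:**
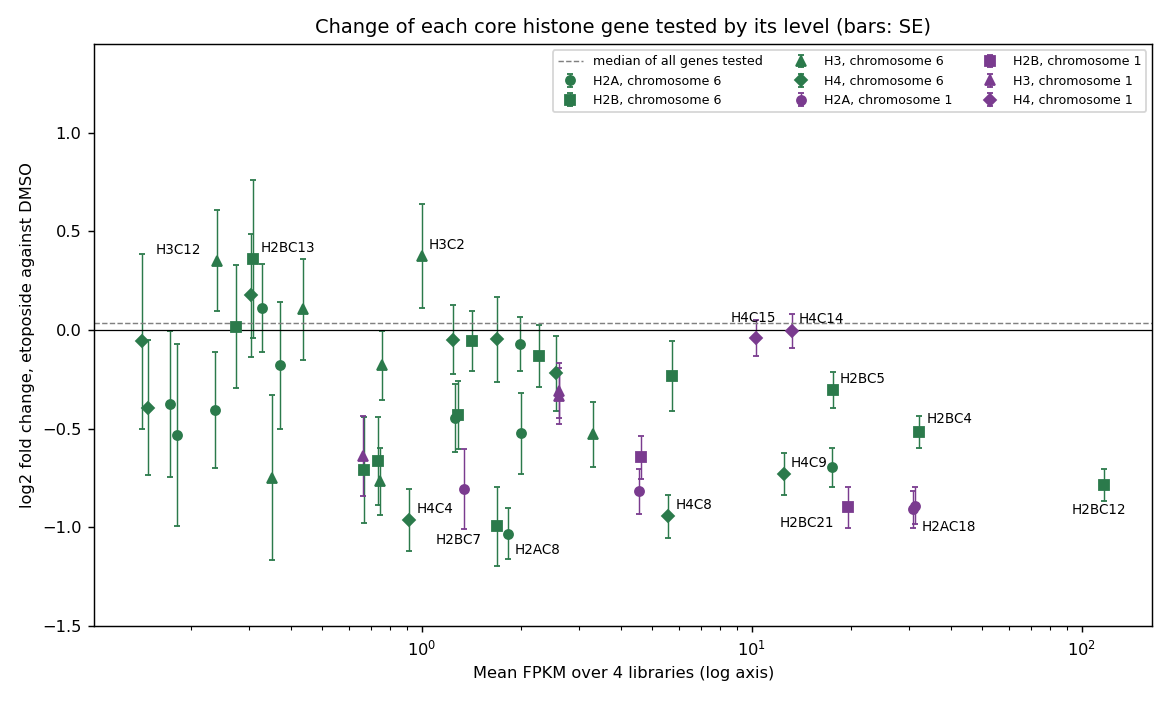
Log2 fold change, etoposide against DMSO (vertical axis, bars are the SE), of the 49 core histone genes tested by their mean FPKM over 4 libraries (log axis). Green marks chromosome 6 and purple chromosome 1, with a symbol for each class. The 29 genes at or above an FPKM of 1 all lie below 0, H4C14 and H4C15 almost on it, and the genes above 0 lie at an FPKM under 1.

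Both clusters had lower sums in etoposide. The 47 genes on chromosome 6 summed to 304 and 280 FPKM in DMSO and 188 and 185 in etoposide (log2 ratio −0.64). The 11 genes on chromosome 1 summed to 158 and 142 in DMSO and 92.5 and 93.5 in etoposide (log2 ratio −0.69). The groups did not overlap in either cluster. The ratio of the chromosome 1 sum to the chromosome 6 sum, which does not depend on how a library was scaled, was 0.520 and 0.508 in DMSO and 0.491 and 0.506 in etoposide. Both etoposide values lay below both DMSO values, by a log2 difference of −0.044. With the highest gene of each cluster left out, this difference was −0.11. On chromosome 1 that gene was H2AC19, and its identical copy H2AC18 stayed in. The ratio without both copies was not computed.

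The chromosome 6 cluster falls into 3 blocks of genes parted by gaps of over 0.5 Mb. The first block (chr6:26020451-26285638, 27 genes) had a mean sum of 105 ± 1.26 FPKM in DMSO and 72.7 ± 1.20 in etoposide (SD, n = 2). The second block (chr6:27125897-27147562, 5 genes), which holds H2BC12, had sums of 183 and 162 against 102 and 103. In the third block (chr6:27807444-27893891, 15 genes), whose 11 genes tested had a median log2 fold change of −0.054, the sums were 14.6 and 14.1 against 12.5 and 10.5. This last block had the lowest sum, and 4 of its 11 genes had both etoposide libraries below both DMSO libraries, against 11 of 22 in the first block and 2 of 5 in the second, where 19% of all genes tested did. The counts of 4 and 2 rest on few genes. On chromosome 1 (chr1:149782689-149887965) this was so for 9 of the 11 genes, and all 11 had a lower mean, with a median of −0.64. These 11 include the identical pairs H2AC18 and H2AC19, H3C14 and H3C15, and H4C14 and H4C15, so that they are not independent. Whether the blocks differ from each other was not tested.

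Among the classes, H2A and H2B had the larger differences in their sums. The H2A genes summed to 127 and 112 FPKM in DMSO and 67.8 and 67.4 in etoposide (log2 ratio −0.82), and the H2B genes to 263 and 243 against 159 and 157 (log2 ratio −0.68). The H3 genes summed to 14.5 and 14.1 against 11.6 and 10.7 (log2 ratio −0.36). For the H4 genes the sums were 56.5 and 52.1 against 42.1 and 43.8 (log2 ratio −0.34). On chromosome 6 alone the log2 ratios were −0.635 for H2A, −0.655 for H2B, −0.331 for H3 and −0.643 for H4. The identical H2AC18 and H2AC19 of chromosome 1 held 80.8 FPKM of the H2A mean of 120 in DMSO. The groups of each class did not overlap, and whether the classes differ from each other was not tested.

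Within H4, the pair on chromosome 1 was summed apart from the other genes. H4C14 and H4C15 summed to 23.6 and 23.8 FPKM in DMSO and 22.5 and 24.3 in etoposide, and the groups overlapped. The other 12 H4 genes, all on chromosome 6, summed to 32.9 and 28.3 against 19.6 and 19.5, a log2 ratio of −0.64, and H4C9 and H4C8 held most of that sum. Whether these sets differ from each other was not tested. The share of H4C14 and H4C15 in the summed FPKM of all core histone genes was 5.12% and 5.64% in DMSO and 8.03% and 8.71% in etoposide, while that of H2AC18 and H2AC19 was 18.8% and 17.7% against 15.5% and 15.3%.

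**Figure D3:**
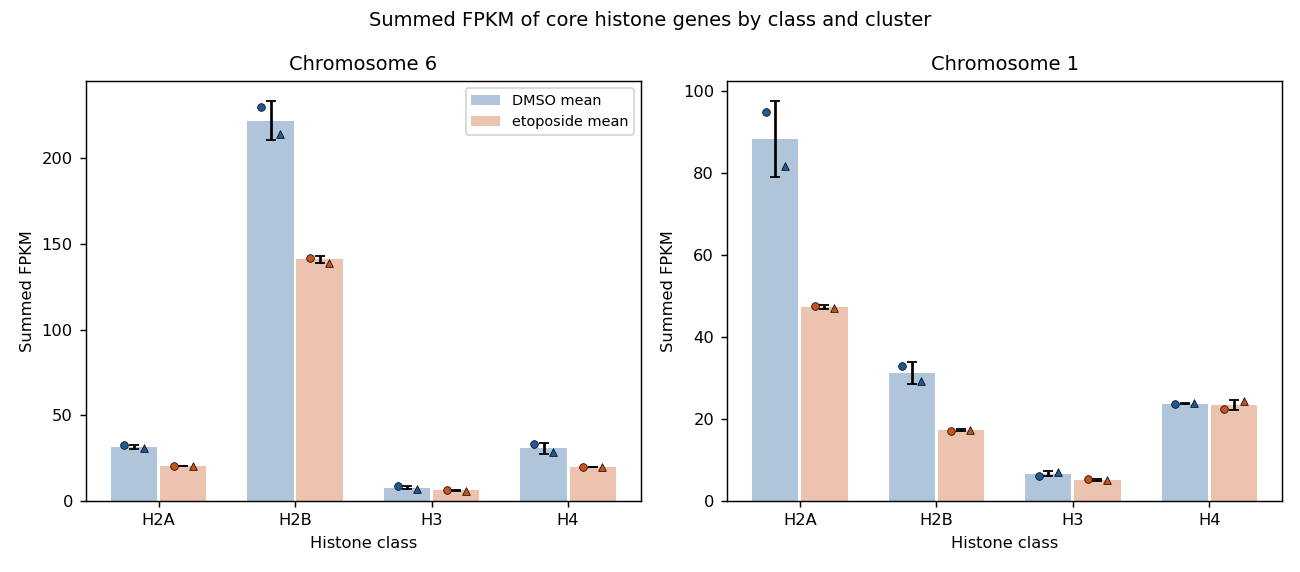
Summed FPKM of the core histone genes by class (horizontal axis) for the clusters on chromosome 6 (left) and chromosome 1 (right). Bars are means of 2 libraries, error bars the SD, circles replicate 1 and triangles replicate 2. H2B leads on chromosome 6 (222 in DMSO, 141 in etoposide) and H2A on chromosome 1 (88.4 and 47.3), and H4 of chromosome 1 has 23.7 and 23.4.

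H2A genes are described first. Both etoposide libraries lay lower in 8 of the 14 tested, against 19% of all genes tested. H2AC18 (ENSG00000203812, chr1:149842188-149842736) had 43.0 and 37.2 FPKM in DMSO and 21.5 and 21 in etoposide. Its log2 fold change was −0.91 (SE 0.095, limma, adjusted p = 0.169). H2AC19 (chr1:149851061-149851624), with 43.8 and 37.6 against 22.0 and 21.7, is identical to it over all 549 bases of the shorter transcript, so that their reads cannot be assigned to one or the other. Together they had 86.7 and 74.8 FPKM in DMSO and 43.5 and 42.7 in etoposide, a log2 ratio of −0.90. Both etoposide libraries lay well below both DMSO libraries. H2AC6, on chromosome 6, had 23.0 and 20.3 against 12.8 and 13.8 (log2 fold change −0.69). H2AC20 had 6.17 and 5.52 against 3.14 and 3.41 (−0.82). The largest decrease on the log2 scale among the 49 members tested was that of H2AC8, with 2.51 and 2.45 in DMSO and 1.13 and 1.20 in etoposide (log2 fold change −1.03, SE 0.128, limma, adjusted p = 0.184). None of these 5 genes had overlapping groups. Of the other 9 H2A genes tested, H2AC21, H2AC13 and H2AC17 did not overlap, while H2AC4, H2AC7, H2AC11, H2AC12, H2AC14 and H2AC16 did, H2AC11 with 1.97 and 2.11 against 2.08 and 1.81.

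H2B genes held 56.2% to 57.6% of the summed level in each library. Of the 14 tested, 9 had both etoposide libraries below both DMSO libraries, where 19% of all genes tested did. H2BC12 (ENSG00000197903, chr6:27146361-27146855) had 157 and 140 FPKM in DMSO and 85.6 and 86.0 in etoposide. Its log2 fold change was −0.79 (SE 0.082, limma, adjusted p = 0.169). The etoposide libraries lay within 1 FPKM of each other and far below the DMSO libraries. H2BC21, on chromosome 1, had 27.7 and 23.4 against 13.5 and 13.8 (log2 fold change −0.90, adjusted p = 0.169 in limma). H2BC4 had 37.1 and 38.8 against 27.7 and 25.4 (−0.52), and H2BC5 had 18.3 and 20.6 against 15.4 and 16.0 (−0.31). The groups were apart in all 4, and the decrease on the log2 scale was smaller in H2BC4 and H2BC5 than in H2BC12 and H2BC21. H2BC6, H2BC7, H2BC8, H2BC17 and H2BC18 were apart as well. H2BC9, H2BC10, H2BC11, H2BC13 and H2BC15 overlapped. H2BC13 had a positive log2 fold change of 0.36 on 0.405 and 0.135 FPKM in DMSO and 0.292 and 0.400 in etoposide, and without DMSO replicate 2 it was −0.19.

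H3 genes were low. H3C10 led on chromosome 6 with 4.49 and 3.38 FPKM in DMSO and 2.84 and 2.51 in etoposide (log2 fold change −0.53, adjusted p = 0.369 in limma). The identical H3C14 and H3C15 of chromosome 1 had together 5.25 and 6.39 against 4.79 and 4.42, and the groups did not overlap. H3C2 had the highest positive value of all members, 0.38, with 0.950 and 0.741 FPKM in DMSO and 1.44 and 0.867 in etoposide. Its groups overlapped and etoposide replicate 1 stood above the other 3 libraries. H3C12 was the 1 gene tested whose etoposide libraries both lay above the DMSO libraries, at 0.232 and 0.167 against 0.254 and 0.307 FPKM. H3C6, H3C8 and H3C13 had lower values without overlap, and H3C1 and H3C7 overlapped.

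H4 genes did not all differ alike. In 3 of the 11 tested both etoposide libraries lay below both DMSO libraries, against 19% of all genes tested, and the other groups overlapped. A count of 3 rests on few genes. H4C9 (ENSG00000276180, chr6:27138588-27139881) had 16.8 and 14.5 FPKM in DMSO and 9.02 and 9.77 in etoposide (log2 fold change −0.73, adjusted p = 0.25 in limma). H4C8 (chr6:26277609-26285638) had 7.71 and 7.01 against 3.90 and 3.65 (−0.94, adjusted p = 0.169 in limma). H4C14 (ENSG00000270882, chr1:149832659-149839767) had 13.1 and 13.4 against 12.7 and 13.7 (log2 fold change −0.003, SE 0.087, limma, adjusted p = 0.99), and H4C15 had 10.5 and 10.4 against 9.80 and 10.5 (−0.040, SE 0.090, limma, adjusted p = 0.869). These last values overlapped between groups, where those of H4C9, H4C8 and H4C4 did not. H4C14 and H4C15 are identical over 1547 bases, and each overlaps an H3 gene on the other strand (H3C14 or H3C15) by 173 exon bases. The overlap lies in a minor transcript of each, with at most 0.0512 FPKM for H4C14 and 0.157 for H4C15 in any library. The leading transcripts do not reach the H3 genes. The direction of H4C14 was positive in TPM, where each library is scaled to the same total over all transcripts (0.064), without DMSO replicate 2 (0.010) and without etoposide replicate 1 (0.051), and that of H4C15 in TPM (0.026) and without etoposide replicate 1 (0.010). The near-identical H4C11 and H4C12 (99.22% over 386 bases) had log2 fold changes of −0.048 and −0.047, and the groups of H4C1, H4C2, H4C3 and H4C5 overlapped too.

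The 80 annotated transcripts of the 58 genes were grouped by how they end. Unspliced transcripts that end within 100 bases after the stem-loop number 41, unspliced ones that read further number 17, spliced ones that keep the stem-loop number 10, and spliced ones in which it is absent number 12. A poly(A) signal, AATAAA or ATTAAA, was found in the last 50 bases of 4 of the 41 (9.76%), 10 of the 17 (58.8%), 8 of the 10 (80%) and 6 of the 12 (50%), against 34.1% of all 236853 transcripts of the files. The signals of 5 transcripts that carry much of the level of their genes are shown with 10 bases on either side, in capitals and in the direction of the message.
H2AC18, unspliced transcript: cacgttttcaAATAAAagagttgtta
H2BC21, unspliced transcript: tattgttattAATAAAgttaccaatt
H2BC4, spliced transcript: taaagacaaaATTAAAataactccta
H4C14, spliced transcript: cacatttaagAATAAAcagtccagta
H4C8, spliced transcript: attgtgaaaaAATAAAtgtttaagcc
H2AC18 holds its signal in a transcript that ends 35 bases after the stem-loop. The transcript of H2BC12, of 495 bases, ends 5 bases after it and holds none in its last 50 bases. The RNA was prepared as an mRNA library, and how mRNA was selected is not stated in the sources used here, so that a level need not show how much of a message without a poly(A) tail was in the cells.

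Transcripts of all 4 kinds had lower sums in etoposide, though the order of the kinds by sum was not their order by transcript. Those that end at the stem-loop summed to 272 and 241 FPKM in DMSO and 149 and 148 in etoposide (log2 ratio −0.79, and the same value without H2BC12). Without H2BC12 the DMSO mean was 108 FPKM, of which the identical H2AC18 and H2AC19 held 80.8. Unspliced transcripts that read past the stem-loop summed to 75.5 and 66.9 against 46.6 and 45.9 (−0.62). Spliced transcripts that keep it summed to 49.9 and 46.6 against 35.9 and 37.5 (−0.39), and those without it to 63.8 and 67.3 against 48.9 and 47.6 (−0.44). The leading transcripts of H4C14 and H4C15 held 8.35 and 10.1 FPKM of the DMSO mean of 48.2 of spliced ones that keep it. The share of transcripts that end at the stem-loop in the summed level was 59% and 57.1% in DMSO and 53.2% and 53.0% in etoposide, with no overlap. By transcript, the median log2 fold change of those tested was −0.41 for transcripts that end at the stem-loop, −0.33 for unspliced ones that read past it, −0.57 for spliced ones that keep it and −0.31 for spliced ones without it. Both etoposide libraries lay below both DMSO libraries in 12 of 29, 10 of 17, 6 of 8 and 6 of 10 of them, against 16.1% of all transcripts tested. Whether the kinds differ from each other was not tested.

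Within genes the picture was mixed. H2BC4 was carried by a spliced transcript without the stem-loop, with 34.3 and 35.8 FPKM in DMSO and 26.0 and 23.6 in etoposide (log2 fold change −0.50), beside a short unspliced one with 2.73 and 3.05 against 1.75 and 1.74 (−0.69). For H2BC5 the spliced transcript had 17.3 and 19.3 against 14.3 and 15 (−0.32), and the one that ends at the stem-loop had 1.00 and 1.23 against 1.05 and 0.984 (−0.12). The level of H4C8 lay in spliced transcripts, one with 5.57 and 5.11 against 3.19 and 2.89 (−0.79) and another with 2.14 and 1.82 against 0.694 and 0.749 (−1.34). In H4C14 the leading spliced transcript had 8.36 and 8.34 against 7.91 and 8.13, while an unspliced one that reads past the stem-loop had 0.957 and 0.924 against 1.46 and 1.52, and so was higher in both etoposide libraries. A spliced message is thus found both among the genes with the larger differences and in H4C14. In limma on 71340 transcripts, 0 of 64 member transcripts passed an adjusted p under 0.05, and 0 (0%) of all did. The etoposide libraries lay below the DMSO libraries in 34 of the 64, against 16.1% of all transcripts tested. How StringTie divides reads among overlapping transcripts of a gene sets these values, and its error is not known from the files.

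**Figure D4:**
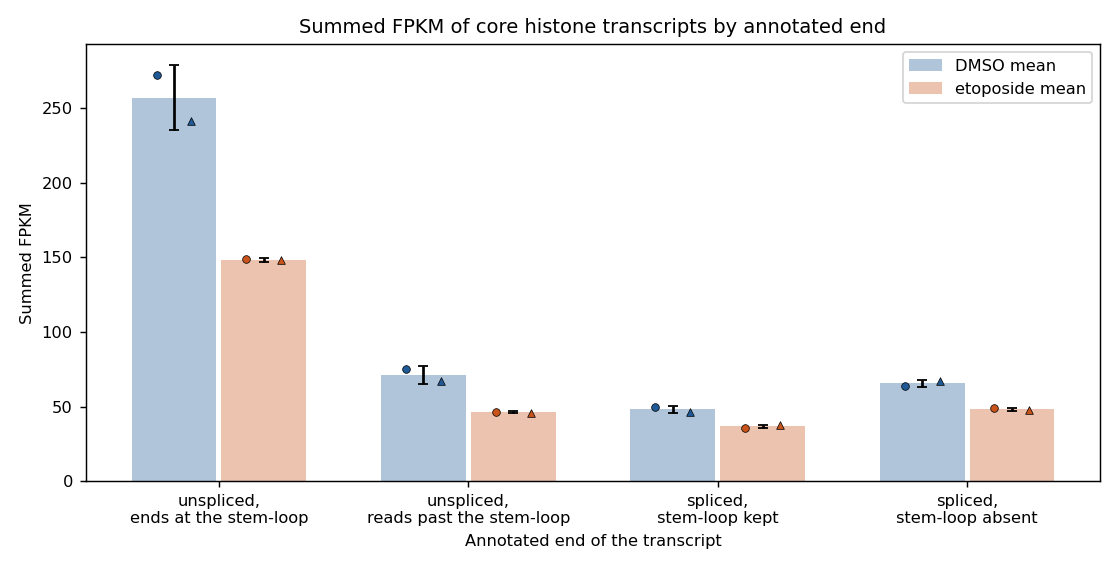
Summed FPKM of the core histone transcripts by their annotated end (horizontal axis), as means of 2 libraries (bars) with the SD (error bars), replicate 1 (circles) and replicate 2 (triangles). Transcripts that end at the stem-loop have 257 in DMSO and 148 in etoposide, and the groups are apart in each of the 4 kinds.

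Many H2A and H2B genes stand head to head and share the DNA between their starts. Of the 58 genes, 18 form 9 such pairs with 218 to 282 bases between the annotated starts. The sequences of 4 pairs on GRCh38 are shown, the 3 with the highest levels and 1 without an octamer. Capitals mark CCAAT (the CCAAT box), TATAAA (the TATA box) and ATTTGCAT (the octamer that POU2F1 binds) on either strand, and a run such as TTTATAAA holds the TATA box on both strands.
H2BC12 and H2AC12 (chr6:27146856-27147105, plus strand): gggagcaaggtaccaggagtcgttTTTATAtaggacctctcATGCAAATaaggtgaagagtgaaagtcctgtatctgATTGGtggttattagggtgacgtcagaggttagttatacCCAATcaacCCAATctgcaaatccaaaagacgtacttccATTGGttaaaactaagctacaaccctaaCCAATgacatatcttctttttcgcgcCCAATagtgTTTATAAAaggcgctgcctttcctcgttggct
H2BC4 and H2AC6 (chr6:26123927-26124144, plus strand): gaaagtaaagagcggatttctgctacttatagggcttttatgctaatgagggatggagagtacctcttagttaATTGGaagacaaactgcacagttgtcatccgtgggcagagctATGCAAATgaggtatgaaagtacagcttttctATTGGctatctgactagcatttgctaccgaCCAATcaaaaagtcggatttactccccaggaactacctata
H2BC21 and H2AC20 (chr1:149886653-149886917, plus strand): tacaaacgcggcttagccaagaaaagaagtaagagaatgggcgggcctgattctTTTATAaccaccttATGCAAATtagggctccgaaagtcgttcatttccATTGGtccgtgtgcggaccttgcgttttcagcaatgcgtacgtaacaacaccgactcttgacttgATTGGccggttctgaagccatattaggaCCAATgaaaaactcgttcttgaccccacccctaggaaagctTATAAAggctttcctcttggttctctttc
H2BC13 and H2AC13 (chr6:27807932-27808198, plus strand): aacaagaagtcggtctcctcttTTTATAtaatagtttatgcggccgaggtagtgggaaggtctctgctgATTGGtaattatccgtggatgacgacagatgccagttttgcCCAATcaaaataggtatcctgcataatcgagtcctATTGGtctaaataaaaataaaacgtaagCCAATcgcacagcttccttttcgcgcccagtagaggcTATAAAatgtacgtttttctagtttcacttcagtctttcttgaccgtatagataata
In the promoters of RefSeq, from 250 bases before to 50 after the start, for 53 of the 58 genes matched by symbol (GRCh38), the octamer was found in 10 of 14 H2A, 13 of 16 H2B, 1 of 11 H3 and 0 of 12 H4 genes, against 2.19% of 27305 genes. CCAAT was found in 83.0% of the members, against 39.7%, and TATAAA in 69.8%, against 14%. A match says only that these letters are present.

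Genes of a pair could differ widely in level. H2BC12 had 647 times the mean FPKM of H2AC12, its partner across 250 bases, which had 0.237 and 0.201 in DMSO and 0.0399 and 0.246 in etoposide. H2BC21 had 4.29 times that of H2AC20, and H2BC4 had 1.84 times that of H2AC6. In H2AC8 with H2BC8, H2AC17 with H2BC17, H2AC13 with H2BC13 and H2AC14 with H2BC14 it was the H2A gene that lay higher. The log2 fold changes of H2AC20 and H2BC21 were −0.82 and −0.90, those of H2AC6 and H2BC4 −0.69 and −0.52, those of H2AC8 and H2BC8 −1.03 and −0.66, and those of H2AC17 and H2BC17 −0.45 and −0.71. In these 4 pairs neither gene had overlapping groups, where both etoposide libraries lay lower in 19% of all genes tested. H2AC7 and H2AC12 overlapped (−0.405 and −0.53), while their partners H2BC7 and H2BC12 did not (−0.99 and −0.79). H2AC14 overlapped (0.11), and its partner H2BC14 was not tested. H2AC11 and H2BC11 both overlapped (−0.070 and −0.23). H2AC13 and H2BC13 were of opposite sign (−0.52 and 0.36), on an H2BC13 level under 0.5 FPKM in every library.

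**Figure D5:**
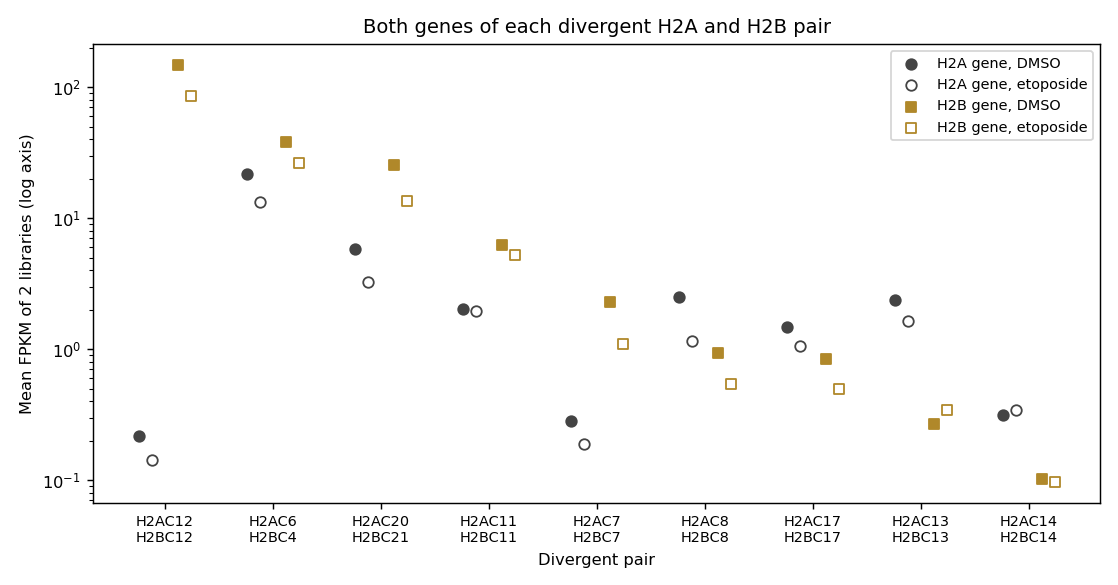
Mean FPKM of 2 libraries (log axis) for both genes of the 9 divergent pairs, H2A as circles and H2B as squares, filled for DMSO and open for etoposide. H2BC12 stands at 148 and 85.8 over H2AC12 at 0.219 and 0.143, while the other pairs lie closer together.

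Other genes of histone supply were lower in some lists and higher in others. Linker histones, which bind the DNA between nucleosomes, were lower in 6 of 6 listed here and tested, with a median log2 fold change of −0.67. Of all 22185 genes tested, 9727 were lower. H1-2 had 102 and 86.3 FPKM in DMSO and 53.6 and 58.0 in etoposide, and H1-10 had 233 and 199 against 138 and 148. Of 16 replacement variants tested, which are mostly made outside replication or for special chromatin, 13 were lower and 3 higher (median −0.33). Their list holds H2AW and H2BU1, which current annotation places in the core family. Its summed FPKM overlapped between the groups, at 1137 and 1063 in DMSO and 1035 and 1075 in etoposide. H2AW had 3.36 and 2.93 against 1.41 and 1.37, and H2BS1 had 3.24 and 2.96 against 1.72 and 1.84. In both lists 0 genes passed an adjusted p under 0.05 in limma, and 4 linker histones and 7 variants were lower at an unadjusted p under 0.05, as were 4.85% of all genes tested.

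Factors that make histone messages were mostly higher, where 12458 of all 22185 genes tested were higher. Of 19 transcription and 3′-end factors, 14 were higher and 5 lower (median 0.20), of which 7 were higher at an unadjusted p under 0.05 (7.06% of all genes tested were) and 0 passed the adjusted p in limma. CDK2, the kinase that acts on NPAT, had 18.9 and 19.3 FPKM in DMSO and 24.8 and 25.4 in etoposide. CASP8AP2, a component of histone locus bodies, had 1.56 and 2.52 against 3.50 and 3.50. Of 18 decay factors, 13 were higher (median 0.13), and 1 was so at an unadjusted p under 0.05 in limma, near the 7.06% of all genes. The kinase ATR had 10.6 and 13.1 against 14.6 and 14.9, and the nuclease DIS3 had 4.24 and 5.27 against 5.79 and 6.10. Of 18 chaperones that bring histones to new DNA, 15 were higher (median 0.25), and 8 were higher and 1 lower at an unadjusted p under 0.05 in limma. CHAF1A, the large subunit of chromatin assembly factor 1, had 11.8 and 11.4 against 15.6 and 14.8, and MMS22L had 3.12 and 3.66 against 5.19 and 4.74. In each of these lists 0 passed the adjusted p in limma. CASP8AP2 and SLBP of the transcription and 3′-end factors and CHAF1B, MCM2 and NASP of the chaperones are also among the S phase markers.

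Markers of other cell types were low. Leukocyte markers summed to 1.30 to 1.82 FPKM (CD3D and MS4A1 at 0 in every library, PTPRC at most 0.0715), fibroblast markers to 7.29 to 8.71 and endothelial markers to between 4.6 and 5.78.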

How the data were processed

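RNA sequencing was analysed from 4 libraries, 2 of DMSO treated and 2 of etoposide treated OVCAR3 cells, grouped by their labels, although the study's sequencing methods also speak of transfected cells and of a mutant group. By the submitters' processing notes and the study's methods, reads were aligned to GRCh38 with HISAT2, sorted with SAMtools and given to StringTie 2.1.7 with Ensembl release 104, without a strand option, so that reads of overlapping genes on opposite strands cannot be told apart. For each of 236853 transcripts the authors deposited a coverage, an FPKM and a TPM, which share 1 attribute column with other text, and these deposited values are per transcript and not counts. The study's own comparison used DESeq2 on counts, which were not used here. FPKM were summed per gene over 60605 genes. limma 3.58.1 in R 4.3.3, with a variance trend and robust moderation, was run on log2(FPKM + 0.1) for the 22185 genes and 71340 transcripts with a mean FPKM of at least 0.1, so that a fold change is on the log2(FPKM + 0.1) scale and understates that of low genes. Adjusted p-values are Benjamini-Hochberg over all genes or transcripts, with 0.05 as the threshold. Fragments were estimated as coverage times length over 200 bases. Sums of genes have no p-value.

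Named are the 4 highest members of each class, the 6 with the smallest p, the 3 with the largest change upwards and the 2 smallest p-values of each list of supply genes. Of the lists, 1 gene is not reported here, and the values of its list leave it out. The members and lists were chosen with earlier results of these data known. Transcripts with at least 98% identity over 90% of the shorter were taken as near-identical. Stem-loops were searched within 150 bases after the stop codon with up to 1 mismatch. Both the gene test and the loess step were tested on simulated data. Alternatives were other pseudocounts, filters, scalings and variance models, estimated fragments, a loess correction for length and GC content, a replicate block and leaving out each library. Tables were made with Python 3.11.15 and pandas 2.3.3, figures with matplotlib 3.10.9.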

Additional observations from a re-analysis of the deposited data

How the results depend on the processing

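The files hold no counts, 2 libraries a group leave 2 residual degrees of freedom, and members under an FPKM of 1 rest on at most 172 fragments. With 1 library left out, its group keeps a single library, assumed to vary as the other group does. The number of core histone genes called, 0 with all libraries, ranged from 0 to 13 when 1 library was left out and was 3 with the correction for GC content and length. It stayed at 0 in the other 9 alternatives. For transcripts it was 0 in all 7 alternatives run. TPM shifted the median over all genes to 0.10 (log2), and there the log2 ratio of the sums was −0.59 for all core histone genes, −0.61 for H2B, −0.29 for H3, −0.27 for H4 and −0.58 for chromosome 6. Without the highest member it was −0.54 for H2B, −0.29 for H3, −0.47 for H4 and −0.51 for chromosome 6, and −0.11 for chromosome 1 over chromosome 6. Leaving out 1 library gave −0.72 to −0.59 for the sum of all core histone genes and −0.065 to −0.022 for the ratio of the clusters. Every sum was lower in etoposide under each alternative run, as was the ratio of the clusters. The highest member was H2AC19 in H2A and on chromosome 1, and H4C14 in H4. Their near-identical copies H2AC18 and H4C15 stayed in, so this alternative does not show the sums or the ratio without both copies. The other 62 of 72 values of the sums moved by less than 1 SD of the replicates, but for many of these that was fixed in advance. With 2 libraries a group, leaving out 1 cannot move a log2 ratio by more than that SD. The replicate block leaves every log2 ratio as it is, and so does a rescaling of whole libraries for the ratio of the clusters. Such values are no evidence of stability. Among 19 named members, 6 of 263 values changed sign: H2BC13 without DMSO replicate 2 (−0.19, with −0.19 to 0.91 over the fits without 1 library), H4C14 without DMSO replicate 2 (0.010), without etoposide replicate 1 (0.051) and in TPM (0.064, with −0.057 to 0.051 without 1 library), and H4C15 without etoposide replicate 1 (0.010) and in TPM (0.026, with −0.091 to 0.010 without 1 library). A further 25 of the 263 passed the test. The causes were not tested.

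The replicate numbers are not stated to mark a shared batch. Across 22185 genes the difference between replicates 1 and 2 in DMSO correlated at 0.013 with that in etoposide, a description over genes that are not independent. With the replicate block 0 core histone genes and 0 transcripts were called, and the block changed no other call. The paired log2 ratio of all core histone genes was −0.66, which equals the unpaired one by construction in this balanced design and so is no check of it.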
